A study of Mus musculus with 30 samples.

Results

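The D-type cyclins and the inhibitors of their kinases are followed here as mouse embryonic fibroblasts (MEFs) were taken towards induced pluripotent stem cells (iPSCs) by 2 routes, and after single small molecules were withdrawn from 1 of them. The set has 9 genes, chosen by name and not by a threshold on their values, out of 55401 gene identifiers: the 3 D-type cyclins Ccnd1, Ccnd2 and Ccnd3, the 2 Cip/Kip inhibitors Cdkn1a and Cdkn1b, and the 4 INK4 inhibitors Cdkn2a, Cdkn2b, Cdkn2c and Cdkn2d. Each symbol matched 1 identifier, and all 9 were present at levels high enough to be tested in every table. RNA-seq levels are given as FPKM, fragments per kilobase of transcript scaled to the size of the library. Differences are on the log2(FPKM + 1) scale, with ± 1 SE, and were tested with limma, which fits all genes of a table at once; a gene is said to have risen or fallen, or to be called, at an adjusted p under 0.05 over all genes tested together with at least 2-fold on that scale. The 3 tables may have been normalized separately, so levels set across them are descriptions and every test stays within 1 table.

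D-type cyclins bind Cdk4 and Cdk6 and carry mitogen signals into the cell cycle: the active kinases phosphorylate Rb, which frees E2F factors to switch on genes of DNA replication. INK4 proteins bind Cdk4 and Cdk6 directly and keep them from their cyclins, while Cip/Kip proteins act mainly on Cdk2 complexes and also help D cyclins assemble with their kinases. Ccnd1 is a classical late target of the ERK pathway, the Ink4 locus is a known barrier to reprogramming of fibroblasts, and mouse pluripotent stem cells are known for a short G1 phase with little dependence on D cyclins.

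The 30 libraries form 15 groups of 2. In the 4-factor arm, 129XOG2 MEFs carried Oct4, Sox2, Klf4 and c-Myc on lentiviruses and received doxycycline at 2 µg/ml; they were collected on days 0, 2, 4 and 7 and as iPSCs. In the CF1 chemical arm, CF1 MEFs were kept in small-molecule media without introduced factors and were collected on days 0, 4, 8 and 12 and as iPSCs. In the removal experiment, OG2 MEFs with the genotype label 129XOG2 went through chemical reprogramming, lost 1 molecule from day 8 to day 12 (-PD, -WS, -VC or -CHIR) and were set against CT, all collected on day 12. CT is not spelled out in the labels and was read as the arm with nothing removed; WS and VC are not spelled out either. iPSCs of both arms were grown on feeder cells with LIF, 3 µM CHIR99021, an inhibitor of the kinase Gsk3 that mimics Wnt signalling, and 0.2 µM PD0325901, an inhibitor of the ERK kinase MEK, so these iPSCs were measured under a MEK inhibitor. Whether replicates came from separate cultures is not given in the labels, and the p-values therefore reflect the spread of these pairs of libraries, a spread that may be technical.

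Marker genes went with the labels at the ends of each arm. The summed FPKM of 10 fibroblast markers was 43.4 to 46.6 in 4-factor iPSCs and 167 to 172 in CF1 iPSCs, against 3092 to 27986 in the other 13 groups. Pluripotency markers, 9 genes, summed to 3387 to 4207 FPKM in 4-factor iPSCs and 3889 to 4020 FPKM in CF1 iPSCs, and to between 9.87 and 227 FPKM elsewhere; Nanog and Tdh stayed under 1 FPKM in CT. The CF1 day 0 libraries alone had macrophage markers of 241 to 253 summed FPKM, against at most 23.6 in any other group. Replicates correlated with r of at least 0.972, the day 4 libraries of the 4-factor arm being lowest, and CT replicate 2 had 2.03% of its FPKM sum in mitochondrial genes against 5.77% to 8.12% in the other 9 removal libraries. All samples are bulk RNA, in which fewer cells of a type and less RNA per cell cannot be told apart.

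**Figure D1:**
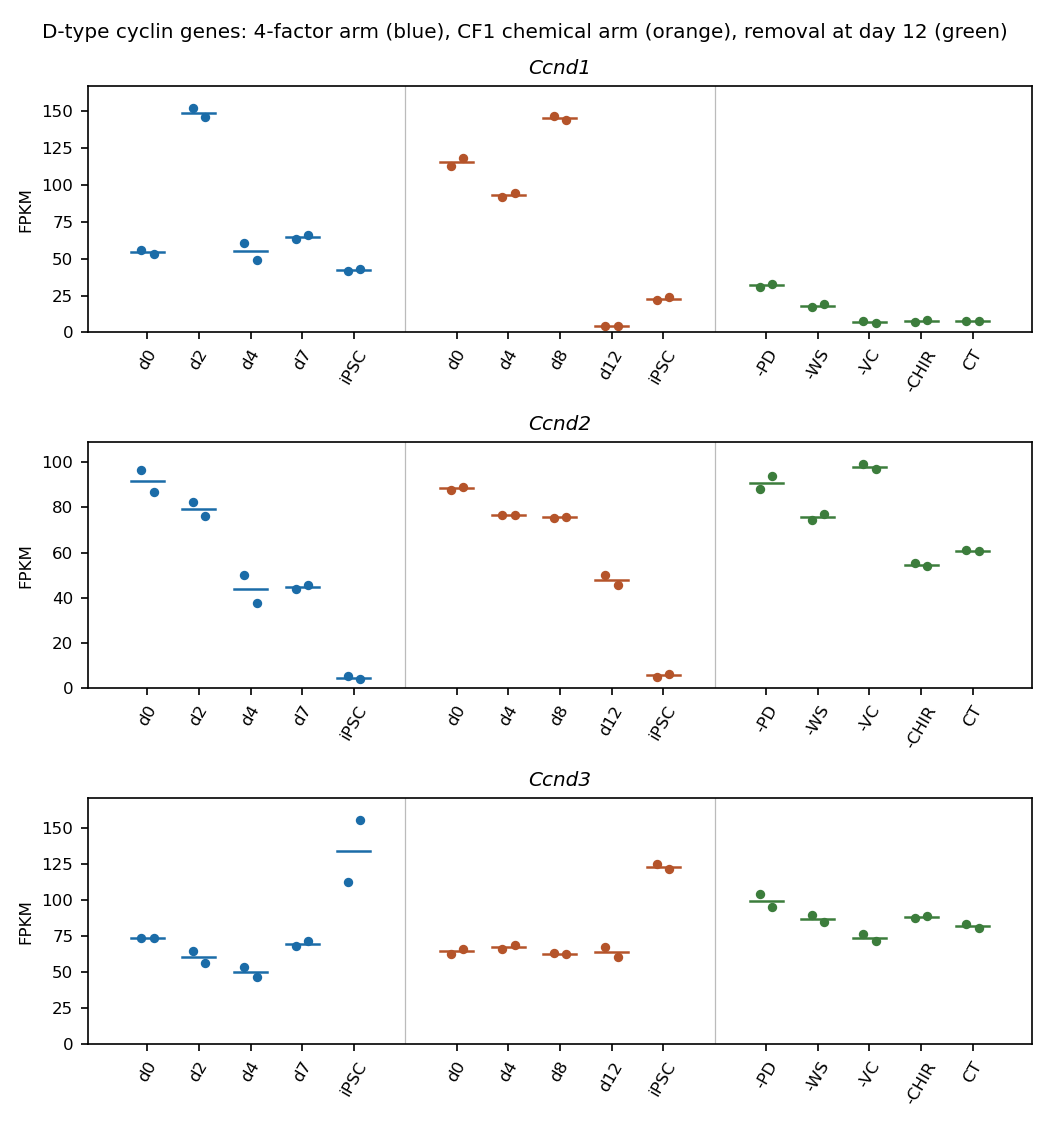
FPKM of the 3 D-type cyclin genes (y axis, linear, from 0) in each of the 15 groups (x axis), as 2 points for the 2 libraries and a line at their mean. Ccnd1 is lowest on day 12 of the CF1 arm, at 4.59 and 4.63 FPKM; Ccnd2 is lowest and Ccnd3 highest in the iPSCs of both arms.

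Ccnd1, the D cyclin most closely tied to mitogen signals, had the widest swing of the cyclins, 32.3-fold between its highest and lowest group mean. In the CF1 arm it stood at 113 and 118 FPKM on day 0, 92.0 and 94.5 on day 4, 146 and 144 on day 8, 4.59 and 4.63 on day 12, and 22.0 and 23.7 in iPSCs. Day 12 was the lowest of all 15 groups and shared no value with any other. Between day 12 and day 8 Ccnd1 fell by 4.70 ± 0.06 (limma, adjusted p = 5.55e-10), a day 12 mean of 4.61 ± 0.03 FPKM against a day 8 mean of 145 ± 1.6 FPKM (SD, n = 2 each). It rose again in CF1 iPSCs, by 2.09 ± 0.06 over day 12 (limma, adjusted p = 1.87e-09), yet was still 2.29 ± 0.06 below day 0 (adjusted p = 1.61e-09).

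In the 4-factor arm Ccnd1 had a single peak. It measured 56.1 and 53.3 FPKM on day 0, 152 and 146 on day 2, 60.9 and 49.1 on day 4, 63.1 and 66.2 on day 7, and 41.8 and 43.1 in iPSCs. Day 2 lay above every other library of this arm, and the rise over day 0 was 1.43 ± 0.13 (limma, adjusted p = 0.000245). On day 4 the level overlapped day 0, with a 95% interval of -0.28 to 0.28 for the difference. Across all 15 groups, ordered by level, 4 of the 14 neighbouring pairs overlapped: 4-factor day 2 with CF1 day 8, 4-factor day 4 with day 0, CT with -CHIR, and -CHIR with -VC.

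Ccnd2, which replaces or adds to Ccnd1 in many cell types, was high in fibroblasts and nearly lost in iPSCs. Its levels in the 4-factor arm were 96.6 and 86.9 FPKM on day 0, 82.1 and 76.2 on day 2, 50.3 and 37.9 on day 4, 43.8 and 45.8 on day 7, and 5.37 and 4.28 in iPSCs. In the CF1 arm they were 87.6 and 89.0 FPKM on day 0, 76.7 and 76.8 on day 4, 75.2 and 75.9 on day 8, 49.9 and 45.7 on day 12, and 5.14 and 6.50 in iPSCs. The iPSC groups of both arms overlapped each other and lay far below every other group. Relative to day 0, Ccnd2 fell by 4.00 ± 0.16 in 4-factor iPSCs (limma, adjusted p = 5.14e-08) and by 3.72 ± 0.09 in CF1 iPSCs (adjusted p = 1.50e-09). These and the other members' falls in iPSCs ran alongside the drop in summed fibroblast markers given above, and the part of that drop in them was not tested. Ccnd2 had also fallen on day 4 and day 7 of the 4-factor arm, by 1.05 ± 0.16 and 1.02 ± 0.16 (adjusted p = 0.000804 and 0.00143). Those calls sit at the edge of 2-fold: the day 4 change was -0.85 without day 4 replicate 2 and -0.98 without day 0 replicate 1, and the day 7 change was -0.98 without day 7 replicate 1 and -0.94 without day 0 replicate 1.

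Ccnd3 was the steadiest of the 9 genes, with 2.67-fold between its highest and lowest group mean, and the one cyclin that was highest in iPSCs. It gave 112 and 155 FPKM in 4-factor iPSCs, against 73.7 and 73.9 on day 0; in CF1 iPSCs it gave 125 and 121 FPKM, against 62.8 and 65.8 on day 0. iPSC libraries did not overlap any other group. The differences, 0.83 ± 0.16 (limma, adjusted p = 0.00146) and 0.92 ± 0.06 (adjusted p = 9.44e-07), passed the test on p but stayed under 2-fold; the 4-factor value was 1.06 without iPSC replicate 1. Through the CF1 arm Ccnd3 was level, at 67.4 and 60.7 FPKM on day 12 against 62.8 and 65.8 on day 0, a log2 difference of -0.01 with a 95% interval of -0.15 to 0.13.

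The makeup of the D cyclin pool differed by stage, FPKM being comparable between genes because it is per length. Ccnd1 supplied 3.97% of the summed D cyclin FPKM on CF1 day 12, against 51.2% on day 8. Ccnd3 supplied 73.5% of it in 4-factor iPSCs and 81.1% in CF1 iPSCs, against 33.5% on 4-factor day 0 and 24.0% on CF1 day 0. In the same iPSCs the share of Ccnd2 was 2.74% and 3.84%.

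**Figure D2:**
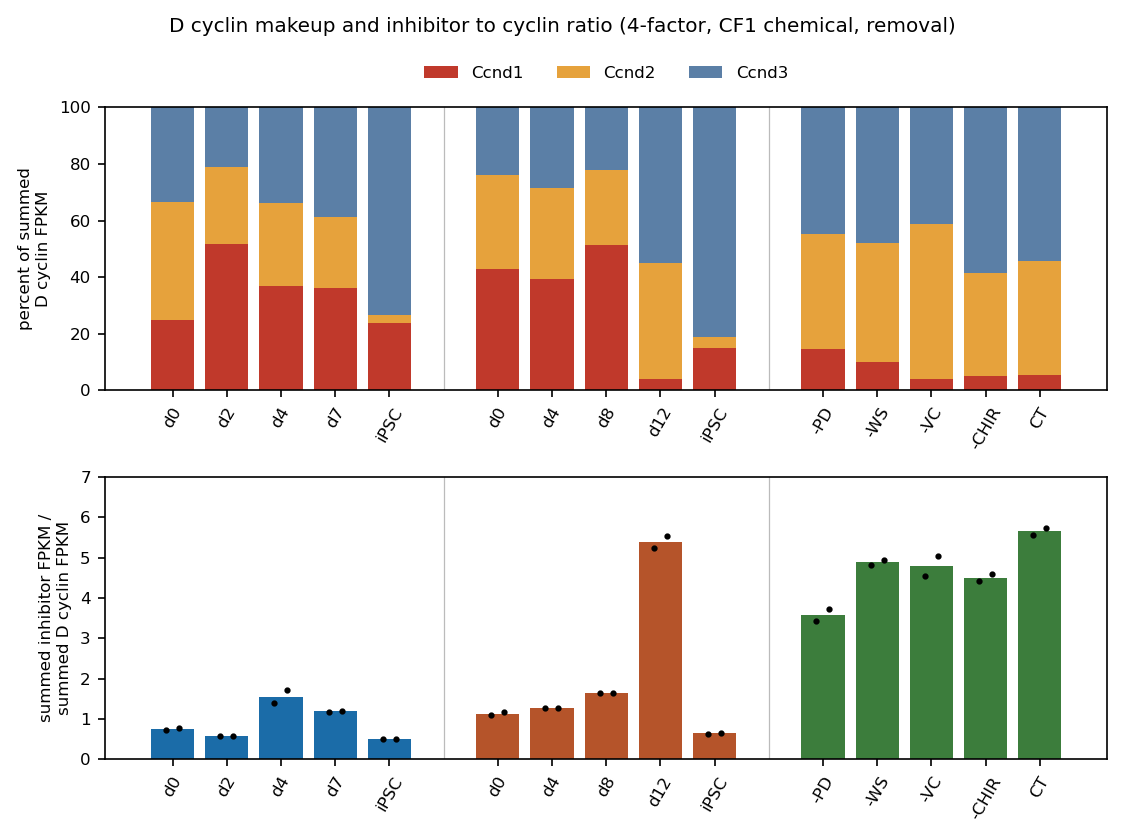
Top: mean share of Ccnd1, Ccnd2 and Ccnd3 in the summed D cyclin FPKM of each group (percent). Bottom: summed FPKM of the 6 inhibitors over that of the 3 cyclins, as bars at the group mean with a dot for each of the 2 libraries. CF1 day 12 stands at 5.38, against 1.64 on day 8, and CT at 5.65. Cdkn1c, a Cip/Kip gene outside the set, is not in the inhibitor sum.

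Cdkn1a encodes p21, the inhibitor that p53 switches on, and was the most abundant of the 6 inhibitors of the set in every group on the FPKM scale. Its CF1 levels were 233 and 228 FPKM on day 0, 166 and 171 on day 4, 275 and 278 on day 8, 367 and 357 on day 12, and 64.0 and 71.4 in iPSCs. After a dip on day 4 each later time point lay above the one before without overlap, and iPSCs lay lowest. Day 12 exceeded day 0 by 0.65 ± 0.06 (limma, adjusted p = 1.35e-05), under 2-fold, whereas in iPSCs Cdkn1a fell by 2.4 ± 0.06 against day 12 (adjusted p = 1.35e-09) and by 1.75 ± 0.06 against day 0 (adjusted p = 1.26e-08). In the 4-factor arm it ranged less, from 54.4 FPKM in an iPSC library to 128 FPKM in a day 4 library, and no comparison there passed both thresholds. Of 19 other p53 target genes, 3 rose and 1 fell on CF1 day 12 against day 0, where 10.1% of all tested genes rose and 15.5% fell; the median log2 difference was 0.32 against -0.06 over all genes tested. The 3 were Trp53inp1 (2.02), Pmaip1, which encodes the death protein Noxa (1.56), and Gadd45a (1.25); Plk2, a polo-like kinase, fell by 2.19. In CF1 iPSCs against day 12, 9 of the 19 fell and 0 rose, where 20.8% of all tested genes fell and 28.4% rose (medians -0.85 and 0.14), among them Phlda3 (-1.78), Pmaip1 (-1.68) and Ccng1 (-1.46).

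**Figure D3:**
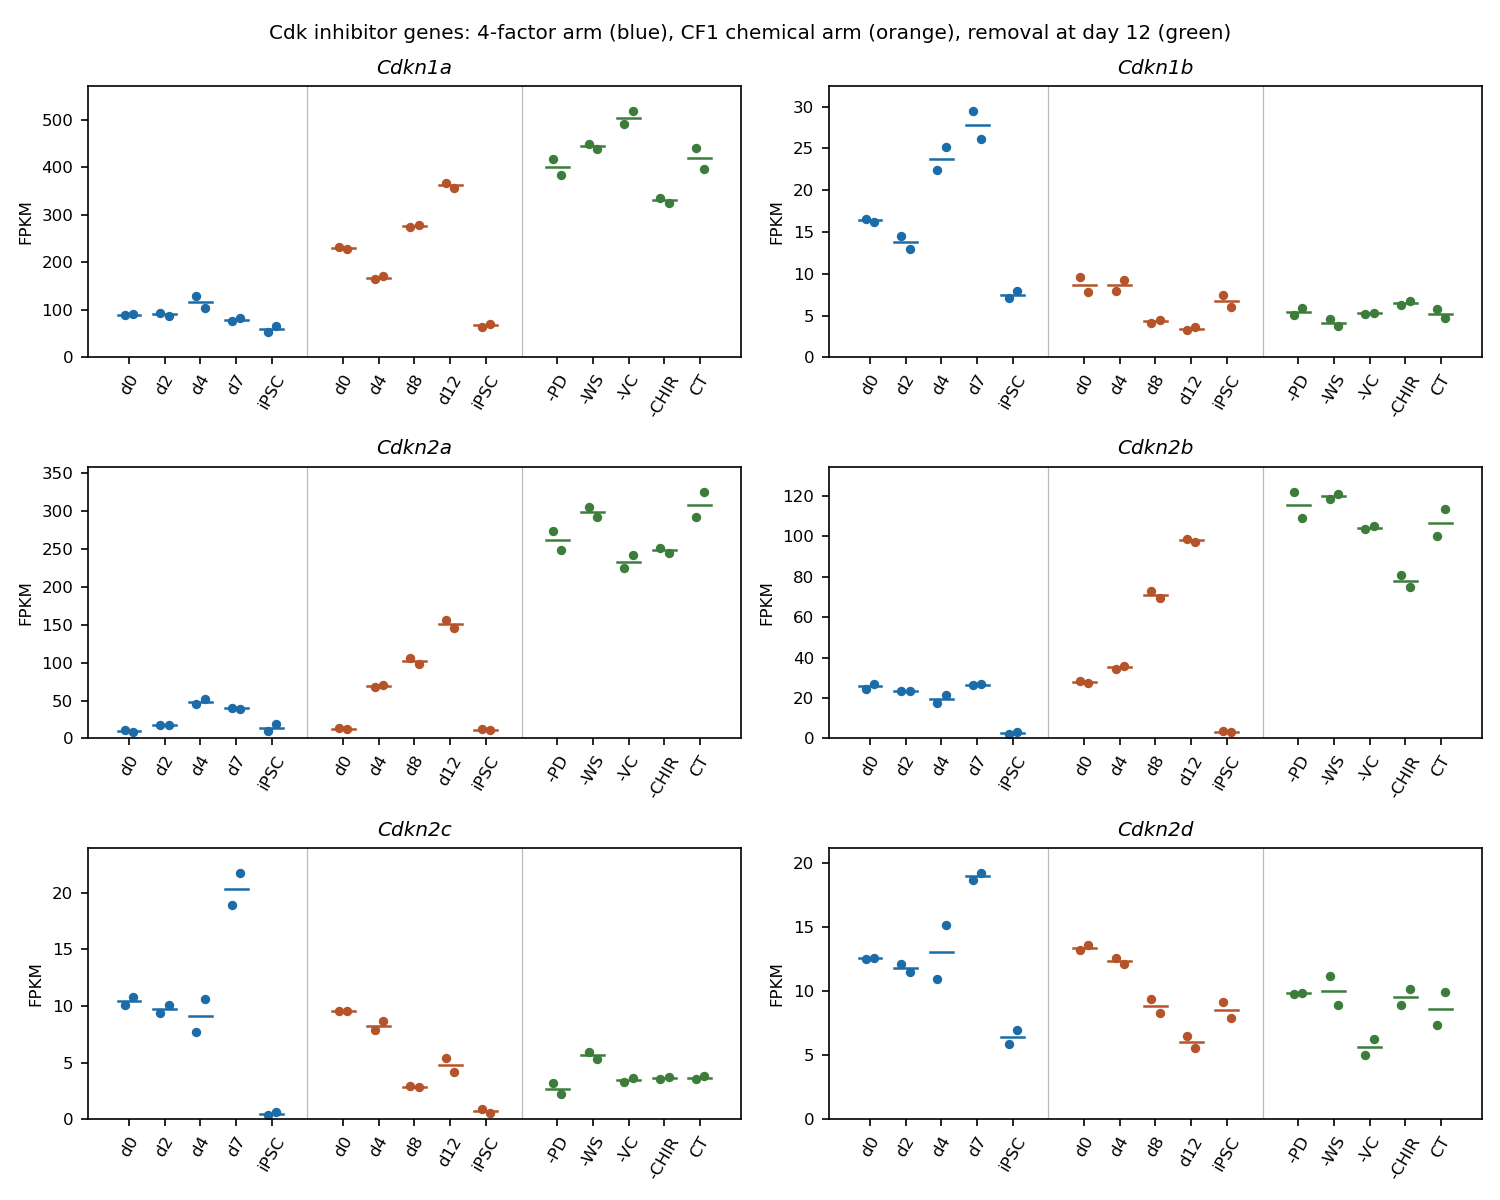
FPKM of the 6 inhibitor genes (y axes, linear, from 0, each gene on its own scale) in each of the 15 groups, as 2 library points and a line at their mean. Cdkn2a and Cdkn2b climb through the CF1 arm to day 12, Cdkn1a dips on day 4 and then climbs, and all 3 are low in iPSCs, while Cdkn1b, Cdkn2c and Cdkn2d peak on day 7 of the 4-factor arm.

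Cdkn1b encodes p27, an inhibitor associated with quiescence and controlled to a large extent through protein turnover, and its transcript was highest late in the 4-factor arm and lowest late in the CF1 arm. It was 16.6 and 16.2 FPKM on day 0 of the 4-factor arm, 14.5 and 13.0 on day 2, 22.4 and 25.2 on day 4, 29.5 and 26.1 on day 7, and 7.09 and 7.89 in iPSCs. In the CF1 arm it was 9.58 and 7.80 FPKM on day 0, 7.93 and 9.31 on day 4, 4.1 and 4.51 on day 8, 3.27 and 3.64 on day 12, and 7.52 and 6.10 in iPSCs. Day 7 lay above and CF1 day 12 below their own day 0 without overlap. On day 12 Cdkn1b fell by 1.12 ± 0.13 against day 0 (limma, adjusted p = 6.70e-05), which came to -0.997, under 2-fold, when libraries were rescaled by median of ratios and to -0.98 without day 0 replicate 1. The 4-factor day 7 difference was 0.72 ± 0.12 (adjusted p = 0.0025), under 2-fold; the difference of change between the arms was not tested. iPSCs of the 4-factor arm had fallen against day 7 by 1.76 ± 0.12 (adjusted p = 1.84e-06) and against day 0 by 1.04 ± 0.12 (adjusted p = 6.56e-05; -0.97 without iPSC replicate 1).

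Cdkn2a and Cdkn2b, which encode p16Ink4a with p19Arf and p15Ink4b, lie next to each other on chromosome 4, with 11645 bases between the annotated genes (GRCm38). Cdkn2a has a pair of start sites: the upstream one opens the Arf transcript and the downstream one the Ink4a transcript, and FPKM summed over the gene does not separate them. The 250 bases before each start are printed because both genes had risen by day 12 of the CF1 arm. They come from RefSeq (GRCm38.p6), all on the minus strand, at chr4:89294620-89294869 for the upstream Cdkn2a start, chr4:89282193-89282442 for the downstream Cdkn2a start and chr4:89311033-89311282 for Cdkn2b. Capitals mark each GC box (GGGCGG on either strand) and each full cAMP response element (CRE, TGACGTCA).
Cdkn2a, upstream start: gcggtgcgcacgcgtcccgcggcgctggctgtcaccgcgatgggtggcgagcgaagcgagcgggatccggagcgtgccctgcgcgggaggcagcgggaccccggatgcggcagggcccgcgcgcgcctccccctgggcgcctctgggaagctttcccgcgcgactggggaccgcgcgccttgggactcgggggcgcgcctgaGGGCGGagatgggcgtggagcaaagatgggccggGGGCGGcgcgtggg
Cdkn2a, downstream start: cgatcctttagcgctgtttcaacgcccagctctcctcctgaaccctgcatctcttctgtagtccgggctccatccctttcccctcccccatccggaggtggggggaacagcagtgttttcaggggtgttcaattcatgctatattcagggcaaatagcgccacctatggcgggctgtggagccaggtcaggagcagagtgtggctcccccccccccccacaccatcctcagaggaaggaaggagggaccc
Cdkn2b: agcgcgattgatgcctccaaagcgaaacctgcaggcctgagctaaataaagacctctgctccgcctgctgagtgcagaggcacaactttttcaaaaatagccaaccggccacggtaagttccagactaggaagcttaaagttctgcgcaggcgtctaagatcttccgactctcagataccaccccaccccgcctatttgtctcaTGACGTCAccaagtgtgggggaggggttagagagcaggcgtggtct
The upstream Cdkn2a sequence was 78.4% G and C with 2 GC boxes and 40 CG pairs, the downstream one 60.0% with 7 CG pairs and no GC box, and that of Cdkn2b 53.6% with 12 CG pairs, 1 CRE and no GC box. The median over 32851 promoters of this length was 52.4% G and C with 6 CG pairs; 32.7% of them held a GC box and 1.55% a CRE. On either strand, the letters of the CCAAT box (CCAAT), the TATA box (TATAAA), the AP-1 site (TGANTCA) and the E-box (CACGTG) were not in any of the 3 windows; 33.8%, 12.4%, 6.75% and 6.02% of all promoters held them in that order. The other inhibitors and Ccnd3 also have RefSeq promoters in the table used here, and Cdkn1a's pair held 0 and 2 GC boxes.

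Cdkn2a rose early in both arms and kept climbing in the chemical one. CF1 libraries gave 13.3 and 12.4 FPKM on day 0, 67.7 and 69.9 on day 4, 106 and 97.7 on day 8, 156 and 146 on day 12, and 12.4 and 11.2 in iPSCs. Each step to day 12 was free of overlap, and iPSCs overlapped day 0. The rise was 2.33 ± 0.07 by day 4 (limma, adjusted p = 1.72e-08) and 3.46 ± 0.07 by day 12 (adjusted p = 2.04e-09), 11.8-fold in mean FPKM; in iPSCs Cdkn2a fell by 3.57 ± 0.07 against day 12 (adjusted p = 4.04e-10). Day 0 is where the macrophage markers stood high, and their part in this comparison was not tested; the climb between day 4 and day 12 does not rest on day 0 libraries.

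In the 4-factor arm Cdkn2a peaked on day 4, at a lower level. It gave 10.6 and 9.06 FPKM on day 0, 17.7 and 17.4 on day 2, 45.5 and 51.7 on day 4, 39.6 and 39.5 on day 7, and 9.27 and 18.8 in iPSCs. The rise was 2.19 ± 0.26 on day 4 (limma, adjusted p = 0.000214) and 1.91 ± 0.26 on day 7 (adjusted p = 0.00066). iPSC replicates differed 2.03-fold from each other, the widest replicate gap of any member in any group, and their change of -1.51 ± 0.26 against day 7 was called (adjusted p = 0.00057).

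Cdkn2b followed a later course and did not rise in the 4-factor arm. Its CF1 values were 28.2 and 27.6 FPKM on day 0, 34.4 and 36.1 on day 4, 72.7 and 69.6 on day 8, 98.8 and 97.2 on day 12, and 3.46 and 3.20 in iPSCs. Successive days were without overlap. Day 12 was 1.78 ± 0.06 above day 0 (limma, adjusted p = 1.79e-08) and iPSCs fell by 4.52 ± 0.06 against day 12 (adjusted p = 4.59e-11). The day 8 step of 0.99 ± 0.06 over day 4 (adjusted p = 1.60e-06) ended just under 2-fold, and crossed it at 1.01 with a pseudocount of 0.1 and at 1.12 with median-of-ratios scaling. Between days 0 and 7 of the 4-factor arm Cdkn2b stayed between 17.4 and 27.0 FPKM, with a day 7 difference of 0.05 and a 95% interval of -0.32 to 0.42; its iPSCs had 2.00 and 3.02 FPKM, a fall of 2.94 ± 0.16 against day 0 (adjusted p = 4.14e-07).

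Among 19 genes listed as regulators of the Cdkn2 locus or of p53, 3 rose and 7 fell on CF1 day 12 against day 0, a share of rises near the 10.1% of all tested genes, with 15.5% of all falling (medians -0.21 and -0.06). Hmga2, a chromatin protein of fetal and growing cells, had 3.6 and 2.98 FPKM on day 12 against 215 and 228 FPKM on day 0, a change of -5.70, and Ets1, an ETS transcription factor, changed by -3.83. Id1, an inhibitor of basic helix-loop-helix factors, changed by -2.96, while Twist1 rose by 1.83, Mdm4, a p53 inhibitor, by 1.28 and Kdm6b, an H3K27 demethylase, by 1.01 (limma, each adjusted p at most 0.000111). In CF1 iPSCs against day 12 the Polycomb genes Cbx7, Ezh2 and Suz12, whose products are known repressors of the Ink4 locus, rose by 5.29, 3.35 and 2.79. The 19 split evenly there, 7 rising and 7 falling, with Twist1 at -5.65, where 49.2% of all tested genes were called (medians 0.20 and 0.14).

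Cdkn2c and Cdkn2d, which encode p18Ink4c and p19Ink4d, were less abundant and, unlike Cdkn2a and Cdkn2b, were lower on CF1 day 12 than on day 0. Cdkn2c was 9.53 and 9.57 FPKM on CF1 day 0, 7.86 and 8.68 on day 4, 2.97 and 2.84 on day 8, 5.39 and 4.19 on day 12, and 0.881 and 0.534 in iPSCs. Day 8 lay below day 4 (-1.25 ± 0.13; limma, adjusted p = 5.93e-05) and also below day 12 without overlap, and iPSCs were lowest. In the 4-factor arm Cdkn2c reached 18.9 and 21.8 FPKM on day 7, against 10.1 and 10.8 on day 0, a difference of 0.90 ± 0.17 that stayed under 2-fold (adjusted p = 0.00449), and had 0.366 and 0.680 FPKM in iPSCs. The fall in those iPSCs against day 7, 3.81 ± 0.17 (adjusted p = 1.19e-07), was the largest member change in that arm after the Ccnd2 change against day 0. Cdkn2d moved least of the inhibitors, 3.34-fold between highest and lowest group mean, with 11 of 14 neighbouring groups overlapping. It measured 6.48 and 5.58 FPKM on CF1 day 12, against 13.2 and 13.6 FPKM on day 0, a fall of 1.04 ± 0.10 (adjusted p = 1.63e-05) that became -0.90 with median-of-ratios scaling and -0.95 without day 12 replicate 2.

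Ordered by group mean over all 15 groups, the chemical cultures stood at the top for Cdkn1a, Cdkn2a and Cdkn2b, and the 4-factor day 7 cells for Cdkn1b, Cdkn2c and Cdkn2d. Cdkn2b had the widest span of the 9 genes, 47.7-fold, with -WS at 120 FPKM at the top and 4-factor iPSCs at 2.51 FPKM at the bottom. Its leading groups, -WS, -PD, CT and -VC, each overlapped the next, and CF1 day 12 and -CHIR followed without overlap. Cdkn2a spanned 31.3-fold, with CT overlapping -WS at the top, -PD overlapping -CHIR next, and a low end in which 4-factor day 2, 4-factor iPSCs, CF1 day 0 and CF1 iPSCs each overlapped the next. Cdkn1a spanned 8.36-fold and put every chemical group other than CF1 iPSCs above every 4-factor group. Those groups included the starting MEFs of CF1 day 0, at a mean of 230 FPKM against 90.2 FPKM on 4-factor day 0. The arms differ in mouse stock and table. Overlaps between neighbours were most frequent for Cdkn2d, then for Cdkn2c (9 of 14), Ccnd2 (8) and Ccnd3 (7), and least for Ccnd1, Cdkn1a and Cdkn2b (4 each).

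The number of members called in each comparison is set beside the share of all tested genes called there. In the 4-factor arm 1 of 9 members was called on day 2 against day 0, where 3.68% of all tested genes were called. On day 4 the count was 2 against a background of 16.8%, and on day 7 it was 2 against 10.1%, made up of 6.21% rises and 3.91% falls. iPSCs gave 6 members against day 7 (background 45.7%) and 4 against day 0 (41.5%). In the CF1 arm 1 member was called on day 4 against day 0 (background 19.7%, 11.7% rising and 8.08% falling) and 1 on day 8 against day 4 (13.1%, 5.61% rising and 7.47% falling). Day 12 had 1 of 9 against day 8, with 11.2% of all genes called, 3.52% rising and 7.69% falling, and 5 of 9 against day 0, with 25.6% called, 10.1% rising and 15.5% falling. CF1 iPSCs had 6 against day 12 (49.2%, 28.4% rising and 20.8% falling) and 5 against day 0 (40.5%). Comparisons that share a day or the iPSC libraries are not independent of each other.

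Ccnd1 was the single member called between CF1 day 12 and day 8. Smaller falls, under 2-fold, were seen in a cyclin and an inhibitor. Ccnd2 changed by -0.65 ± 0.09 and Cdkn2d by -0.49 ± 0.10 (limma, adjusted p of 0.000352 and 0.00348). Ccnd3 and Cdkn1b did not pass on p, at 0.02 and -0.25 (adjusted p of 0.79 and 0.149). The 4 inhibitors Cdkn1a, Cdkn2a, Cdkn2b and Cdkn2c were higher on day 12 than on day 8 at an adjusted p under 0.05 but under 2-fold: Cdkn1a by 0.39 ± 0.06, Cdkn2a by 0.56 ± 0.07, Cdkn2b by 0.46 ± 0.06 and Cdkn2c by 0.56 ± 0.13 (limma, adjusted p of 0.000757, 0.00023, 0.000198 and 0.00719). Summed over the 6 inhibitors, FPKM was 626 on day 12 against 466 on day 8 (means of 2); summed over the 3 cyclins it was 116 against 284. The ratio of these sums was 5.23 and 5.53 in the day 12 libraries, against 1.65 and 1.63 on day 8, and it was 0.642 and 0.664 in CF1 iPSCs. The inhibitor sum takes Cdkn2a whole, Arf transcript included, and leaves out Cdkn1c, a Cip/Kip gene outside the set. Cdkn1c had 166 and 182 FPKM on CF1 day 4, 23.9 and 21.9 on day 8 and 64.3 and 56.5 on day 12. The ratio on each day thus depends on which genes are summed. Fibroblast markers also differed between day 8 and day 12, summing to 14512 to 14822 FPKM on day 12 against 3153 to 3214 FPKM on day 8. The sum was carried by collagens, Dcn and Postn; within the same list Thy1 was lower on day 12 (93.4 and 86.6 against 376 and 372 FPKM), as were Pdgfra (58.2 and 57.1 against 172 and 173 FPKM) and Twist2 (88.9 and 85.4 against 241 and 222 FPKM). The part of these markers in the members' differences was not tested.

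Proliferation genes went down before the large fall of Ccnd1 on day 12. Ccnd1 had dipped on day 4 against day 0, under 2-fold (-0.30, 95% interval -0.43 to -0.18). Mki67, which encodes the Ki-67 antigen of cycling cells, had 25.6 and 27.6 FPKM on CF1 day 0, 14.6 and 14.4 on day 4, 3.07 and 3.25 on day 8, and 0.629 and 0.324 on day 12. It was thus lower at each time point than at the one before, including on day 8, when Ccnd1 was at its CF1 peak. Of 27 genes of replication and mitosis, 7 fell on day 4 against day 0 (median log2 difference -0.83, all genes 0.04), where 8.08% of all tested genes fell. On day 8 against day 4, 26 fell (median -1.88, all genes -0.08), where 7.47% of all tested genes fell. On day 12 against day 8, 14 of the 27 fell (median -1.05, all genes -0.06), where 7.69% of all tested genes fell. The falls were led by Top2a (-2.35), Birc5, which encodes survivin (-1.91), and Ccnb1, the mitotic cyclin B1 (-1.77). On day 12 against day 0 all 27 had fallen, with a median of -3.89, where 15.5% of all tested genes fell. In CF1 iPSCs against day 12 all 27 had risen, with a median of 4.68, where 28.4% of all tested genes rose.

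Of 26 Cdk partners and Rb pathway genes, 16 fell and 1 rose on CF1 day 12 against day 0 (median -1.18, all genes -0.06). In that comparison 15.5% of all tested genes fell and 10.1% rose. Ccna2, which encodes cyclin A2, had 1.24 and 1.29 FPKM against 61.7 and 59.7 FPKM on day 0, and Cdk1, the mitotic kinase, 1.32 and 1.06 against 32.7 and 29.6 FPKM. The riser was Cdkn1c, which encodes p57, the remaining Cip/Kip inhibitor: 64.3 and 56.5 FPKM on day 12 against 20.4 and 20.9 FPKM on day 0, a rise of 1.5 ± 0.12 (limma, adjusted p = 4.67e-06). Cdkn1c had been at 166 and 182 FPKM on day 4 and at 23.9 and 21.9 FPKM on day 8, so it was not a steady climb. Among 14 FoxO targets and quiescence genes 9 rose and 2 fell on day 12 against day 0 (median 1.1, all genes -0.06), with Selenop, a selenium carrier, at 355 and 369 FPKM against 6.34 and 5.75 FPKM, and Sesn3, a stress-induced restrainer of mTORC1, at 31.8 and 34.0 against 1.28 and 1.28 FPKM.

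ERK feedback targets changed together with Ccnd1 at the last step. All 15 of the list fell on CF1 day 12 against day 8, where 7.69% of all tested genes fell. The median log2 difference was -3.58 against -0.06 over all genes. Dusp6, a phosphatase that ERK signalling induces and that acts on ERK, had 0.0873 and 0.113 FPKM on day 12 against 55.9 and 54.2 FPKM on day 8, and Fosl1, an AP-1 subunit, 0.0994 and 0.0925 against 27.1 and 24.3 FPKM. On day 8 against day 4, 4 of the 15 had risen and 0 had fallen, with Dusp6 at 1.51, where 5.61% of all tested genes rose and 7.47% fell. In CF1 iPSCs against day 12, 10 rose and 1 fell, with a median of 1.11 against 0.14 over all genes. Of all tested genes 28.4% rose and 20.8% fell there.

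Over the 15 group means the genes most like Ccnd1, among 11103 genes that reached 5 FPKM in some group, were Spred1, an inhibitor of Ras signalling (r = 0.928), Dusp6 (r = 0.927) and Ptprn, a phosphatase-like protein of secretory granules (r = 0.905). These correlations describe 15 means of log2(FPKM + 1) that share libraries and fall into low and high groups, and carry no test. For Ccnd2 the closest were Lhfp (0.986) and Nrp2 (0.973), and for Ccnd3 Trap1a (0.927), Cecr2 (0.924) and Fmr1nb (0.924). Cdkn1a ran closest to Ctsd and Ctsa, which encode lysosomal cathepsins (0.984 and 0.975), and to Tap1, an antigen peptide transporter (0.969). Cdkn2a was most like Ramp2 (0.976), Fbln7 (0.972) and Mfsd7a (0.970), and Cdkn2b most like Aebp1 (0.989), Tgfbr2, a TGF-beta receptor (0.987), and Mrc2 (0.985). The closest to Cdkn1b were Gas2 (0.947), Galnt9 (0.943) and Rspo2 (0.942), to Cdkn2c Pbx3 (0.945), Boc (0.945) and Olfml2b (0.933), and to Cdkn2d Rundc1 (0.885), Pxk (0.868) and Cxcl5 (0.854).

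**Figure D4:**
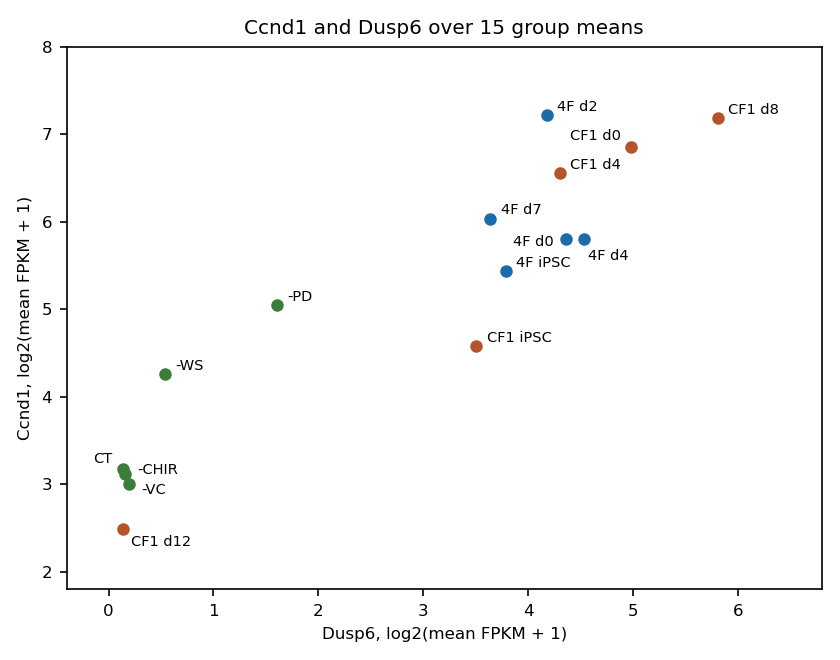
Mean Ccnd1 level against mean Dusp6 level in the 15 groups, both as log2(mean FPKM + 1); blue is the 4-factor arm, orange the CF1 arm and green the removal experiment. CF1 day 12, CT, -CHIR and -VC sit together at the low end, with -WS and -PD above them (r = 0.927 over the 15 group means, a description with no test).

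The removal experiment sets day 12 cultures that lacked 1 molecule beside CT. Ccnd1 was 7.96 and 8.1 FPKM in CT, Mki67 1.25 and 0.850 FPKM, and the ratio of summed inhibitors to summed cyclins 5.57 and 5.73. Cdkn2a had 291 and 325 FPKM in CT and 156 and 146 FPKM on CF1 day 12, cultures that differ in mouse stock and table, which cannot be told apart.

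Ccnd1 was the member that rose when PD was left out. It had 31.1 and 32.9 FPKM in -PD against 7.96 and 8.1 FPKM in CT, with no overlap: 32 ± 1.3 FPKM against 8.03 ± 0.10 FPKM (SD, n = 2 each), 3.99-fold. The rise was 1.87 ± 0.10 (limma, adjusted p = 1.46e-05), and 1.88 without CT replicate 2, the library with the low mitochondrial share. This was 1 of 9 members, against 1.27% of all tested genes, made up of 0.790% rising and 0.482% falling. Ccnd2 was higher too, at 88.0 and 93.6 FPKM in -PD against 60.9 and 60.8 FPKM in CT (0.57 ± 0.06, adjusted p = 0.00047), and Ccnd3, at 104 and 95 against 83.4 and 80.2 FPKM (0.28 ± 0.07, adjusted p = 0.0317), both under 2-fold. Summed D cyclin FPKM was 222 in -PD against 151 in CT, and the share of Ccnd1 in it 14.4% against 5.33%.

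The inhibitors showed no change of that size. Cdkn1a had 416 and 383 FPKM in -PD against 440 and 397 FPKM in CT, with a 95% interval of -0.26 to 0.13 for the log2 difference. Cdkn2b had 122 and 109 against 99.9 and 113 FPKM (interval -0.08 to 0.31), and Cdkn2a 274 and 248 against 291 and 325 FPKM (interval -0.44 to -0.04, unadjusted p = 0.0234 in limma). Cdkn1a and Cdkn2b overlapped CT, as did Cdkn1b and Cdkn2d; Cdkn2a lay below it, and so did Cdkn2c, at 3.23 and 2.23 FPKM against 3.56 and 3.85 FPKM (interval -0.64 to -0.05, adjusted p = 0.107). Cdkn1c, outside the set, fell to 35.1 and 30.3 FPKM in -PD, against 65.6 and 80.0 FPKM in CT (-1.13 ± 0.12, limma, adjusted p = 0.00043). Fibroblast markers summed to 14150 to 14633 FPKM in -PD, against 21469 to 27986 FPKM in CT, a difference that lay mostly in Col1a1, Col1a2 and Col3a1. Pdgfrb of the same list was higher in -PD (46.1 and 49.7 against 41.0 and 34.1 FPKM) and Pdgfra nearly level (66.3 and 66.4 against 69.6 and 72.8 FPKM); the part of these markers in the cyclin differences was not tested.

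Ccnd1 also rose when WS was left out, by less. It had 17.2 and 19.2 FPKM in -WS against 7.96 and 8.1 FPKM in CT, without overlap, a rise of 1.09 ± 0.10 (limma, adjusted p = 0.000238; 1.1 without CT replicate 2). Again this was 1 of 9 members, against 0.910% of all tested genes, 0.444% rising and 0.467% falling. Both comparisons use the same CT libraries. Ccnd2 stood at 74.5 and 76.8 FPKM in -WS against 60.9 and 60.8 FPKM in CT (0.31 ± 0.06, adjusted p = 0.0134), and Cdkn2c at 5.99 and 5.30 against 3.56 and 3.85 FPKM (0.50 ± 0.13, adjusted p = 0.0458), each under 2-fold and without overlap. Cdkn1a, Cdkn2a and Cdkn2d overlapped CT, with intervals of -0.11 to 0.28, -0.24 to 0.15 and -0.15 to 0.55, while Cdkn2b, at 118 and 121 FPKM against 99.9 and 113 FPKM, lay above CT (interval -0.02 to 0.36). Cdkn1b, at 4.57 and 3.77 FPKM against 5.74 and 4.74 FPKM, lay below it (interval -0.53 to -0.01, adjusted p = 0.184). Cdkn1c fell here as well, to 26.5 and 22.3 FPKM (-1.54 ± 0.12, adjusted p = 8.80e-05). A lower Cdkn1c level was not particular to -PD and -WS. It was 32.3 and 33.5 FPKM in -VC and 143 and 134 FPKM in -CHIR, against 65.6 and 80.0 FPKM in CT.

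Set directly against each other, -WS had less Ccnd1 than -PD, 17.2 and 19.2 FPKM against 31.1 and 32.9 FPKM. The difference of -0.78 ± 0.10 passed on p (limma, adjusted p = 0.00179) but not on fold, with a 95% interval of -1.0 to -0.56. Cdkn2c went the other way, at 5.99 and 5.30 FPKM in -WS against 3.23 and 2.23 FPKM in -PD (0.84 ± 0.13, adjusted p = 0.00514); without -PD replicate 1 it was 1.04 and would be called. By limma 0 of 9 members were called between the 2 removals, where 0.647% of all genes were called. If p under 0.05 is left unadjusted, 1 was higher and 4 were lower, and no share of all genes was worked out for that p.

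**Figure D5:**
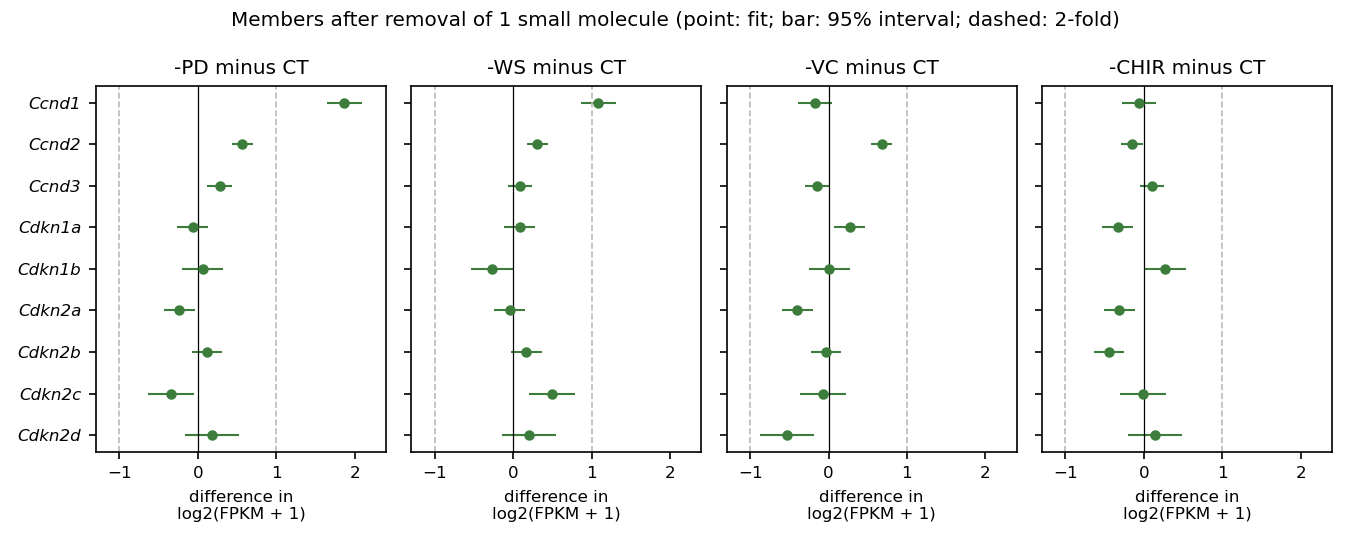
Log2(FPKM + 1) difference of each member between a removal and CT (x axis; point, limma estimate; bar, 95% interval; dashed lines, 2-fold), with the same CT libraries in all 4 panels. Ccnd1 is the one gene beyond 2-fold, at 1.87 in -PD and 1.09 in -WS.

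ERK and Wnt target genes were read beside Ccnd1 in the same removals. Of 15 ERK feedback targets 10 were tested in this table, and 4 rose in -PD. Dusp4, Dusp6 and Egr1 passed the filter on low values through the -PD libraries alone, so a difference in them was built in. These 3 stay among the 10, so the count of 4 is not read as a result about the list. Spred2, which did not depend on that, had 3.44 and 3.96 FPKM in -PD against 0.922 and 0.674 FPKM in CT (1.39 ± 0.12; limma, adjusted p = 0.000186). Dusp6, at 1.8 and 2.27 FPKM in -PD against 0.105 and 0.0951 FPKM in CT, was far under the 55.9 and 54.2 FPKM of CF1 day 8. In -WS limma called 0 of the 10, with 5 higher and 0 lower on an unadjusted p under 0.05. The share of all tested genes at that p was not worked out. Near the floor the added 1 FPKM keeps a log2 difference small, so the lack of calls does not show such genes unchanged. Dusp6 stood at 0.364 and 0.540 FPKM and Egr1, an immediate early transcription factor, at 0.0822 and 0.117 FPKM. In -PD Egr1 had 2.18 and 2.34 FPKM; since both genes entered through the -PD libraries, no test between the removals is given for them. Of 11 Wnt feedback targets 6 rose in -PD and 6 in -WS against CT, where 0.79% and 0.444% of all tested genes rose. Apcdd1 was at 2.28 and 2.37 and Notum, which encodes an enzyme that inactivates Wnt proteins, at 1.77 and 1.41. The list's medians were 1.11 and 1.02, against 0.08 and 0.06 over all genes. In -VC 2 of the 11 rose, with 0.918% of all tested genes rising. The median there was 0.72, against 0.13 over all genes. How the ERK and Wnt targets relate to Ccnd1 was not tested.

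No gene of replication and mitosis was called in either removal. In -PD limma called 0 of 26, though 19 were higher and 0 lower on an unadjusted p under 0.05, with a median log2 difference of 0.43 against 0.08 over all genes. In -WS it called 0 of 26 as well, with 8 higher and 2 lower on that p and a median of 0.14 against 0.06. The share of all tested genes at that p was not worked out, so these counts have no background. Mki67 was 1.81 and 2.25 FPKM in -PD and 1.23 and 1.22 FPKM in -WS, against 1.25 and 0.850 FPKM in CT. At levels this low the added 1 FPKM shrinks a fold, so a call is hard to reach. The lack of calls does not show that such genes were unchanged.

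The other removals gave no called member. In -VC, where 2.33% of all genes were called, 0.918% rising and 1.41% falling, limma had 0 of 9. Unadjusted, 2 were higher and 2 lower at p under 0.05. No share of all genes was worked out for the unadjusted p, here or in -CHIR. Ccnd2 had 98.9 and 97.0 FPKM in -VC, the highest of any group in the series, against 60.9 and 60.8 FPKM in CT (0.68 ± 0.06, adjusted p = 0.0001), while Cdkn2a had 224 and 242 against 291 and 325 FPKM (-0.40 ± 0.09, adjusted p = 0.00907). Cdkn1a, at 490 and 519 FPKM in -VC against 440 and 397 FPKM in CT, was also at its highest of the series (0.27 ± 0.09, adjusted p = 0.0411), and Cdkn2d was at its lowest, 5.04 and 6.29 against 7.34 and 9.96 FPKM (-0.53 ± 0.15, adjusted p = 0.0286). Of the 19 other p53 targets 1 rose in -VC, Gadd45a by 1.30; the list's median difference was 0.30 against 0.13 over all genes. Ccnd1 in -VC was 7.48 and 6.57 FPKM, below CT without overlap, with an interval of -0.39 to 0.05. In -CHIR, with 0.971% of all genes called, 0.662% rising and 0.309% falling, limma again had 0 of 9; unadjusted, 1 was higher and 4 lower at p under 0.05. Cdkn2b was lower there, at 81.0 and 74.8 FPKM against 99.9 and 113 FPKM in CT (-0.45 ± 0.08, adjusted p = 0.0121), and Cdkn1a at 336 and 326 against 440 and 397 FPKM (-0.34 ± 0.09, adjusted p = 0.0451). Ccnd1 overlapped CT in -CHIR, at 6.99 and 8.35 FPKM, with an interval of -0.28 to 0.16. Of the 11 Wnt feedback targets 4 fell in -CHIR, including Notum (-1.54) and Axin2 (-1.37), with a median of -0.61 against 0.03 over all genes; Axin2 had 5.27 and 5.58 FPKM against 15.9 and 15.3 FPKM in CT.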

How the data were processed

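RNA-seq was measured in 30 mouse libraries, 2 per group, in 3 tables of 10. Per the labels' protocols, reads of 150 bp came from Novogene. The tools StringTie 2.0, HISAT2 2.2.1 and fastp 0.20.1 and the build mm10 are named in the submitters' processing notes; the annotation and strand setting are not given in the sources used here. The authors deposited FPKM per gene, which hold no read counts; low values fall on steps that put depth at 34500000 to 40100000 steps per library, but no more than 10.9% to 22.8% of the low values matched such steps, so reads were not recovered and no interval from counts is given. FPKM sums ranged from 328158 to 469208.

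Each table was fitted alone with limma 3.58.1 (R 4.3.3; trend) on log2(FPKM + 1) over genes that reached 1 FPKM in 2 or more libraries, 1 coefficient per group, all 5 groups sharing the spread; a fold understates the change of low genes. All adjusted p are Benjamini-Hochberg over all genes of a comparison. The fit was tested on simulated data. Groups and replicate numbers came from sample titles. Named genes are the 9 members, at most the 3 largest called rises and falls of each list in a comparison, and the 3 genes most like each member, of which 1 is not reported here; Mki67 was added as a level. The members, gene lists and tests were chosen with earlier results of these data known. Other settings were a pseudocount of 0.1, no filter, TPM, median-of-ratios scaling, fits of 2 groups, a replicate block, and leaving out each library. Sequences came from RefSeq; no promoter of Ccnd1 or Ccnd2 is printed.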

Additional observations from a re-analysis of the deposited data

Results flagged for a closer look

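In the members Ccnd3, Cdkn1a and Cdkn2b both day 4 libraries lay on 1 side of both day 0 libraries in the 4-factor arm and on the other side in the CF1 arm. Lack of overlap was frequent with 2 libraries per group: 6 of 9 members in the 4-factor day 4 comparison and 8 of 9 in the CF1 one. The share of all genes that lay on opposite sides in the 2 arms was not worked out. Ccnd3 was 0.56 lower in the 4-factor arm (-0.56 on the log2 scale) and higher by 0.066 in the CF1 arm. Cdkn1a was 0.35 higher in the 4-factor arm and 0.45 lower in the CF1 arm (-0.45). Cdkn2b was 0.38 lower in the 4-factor arm (-0.38) and 0.33 higher in the CF1 arm. None of these passed 2-fold, and by limma Ccnd3 in the CF1 arm (adjusted p = 0.394) and Cdkn1a and Cdkn2b in the 4-factor arm (adjusted p = 0.0765 and 0.083) did not pass on p either; the difference between the arms was not tested, and the arms differ in method, in mouse stock and in table, which cannot be told apart.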

How the results depend on the processing

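Of the changes called among the members, 351 values under another setting kept their direction and call, 9 kept their direction but lost the call, and 0 reversed; among changes not called, 13 values crossed into a call. The counts of called members that moved by over 1.5 times were these. For CF1 day 8 against day 4 the count was 2 with a pseudocount of 0.1 and 2 with median-of-ratios scaling (Cdkn2b added), and 1 to 2 with a library left out. For CF1 day 12 against day 0 it was 3 with median-of-ratios scaling. For -WS against -PD it was 1 with a pseudocount of 0.1 and 0 to 1 with a library left out (Cdkn2c added). Leaving out a library gave 1 to 2 for 4-factor day 4 and 1 to 2 for day 7, against day 0. The cause was not tested. With a library left out, its group's lone sample is assumed to vary like the other groups.

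Counts over all genes moved more. A pseudocount of 0.1 gave 977 called genes for 4-factor day 2 (543 as reported), 2578 for day 7 (1493), 3182 for CF1 day 8 against day 4 (2020), 2880 for day 12 against day 8 (1732), 345 for -PD (169), 264 for -WS (121), 655 for -VC (309), 258 for -CHIR (129) and 209 for -WS against -PD (86). TPM gave 930, 2516, 293, 250, 595, 237 and 171 for 4-factor day 2 and day 7, -PD, -WS, -VC, -CHIR and -WS against -PD. Without CT replicate 1 the 4 removals gave 359, 301, 504 and 243 in the same order. The share of rises among called genes was 62.1% for -PD as reported, 44.7% with TPM and 49.1% with median of ratios; for -VC it was 39.5%, 21.7% and 21.2%. With TPM it was 40.4%, 39.2% and 49.0% for 4-factor days 2, 4 and 7, against 53%, 56.0% and 61.4%. The median of all genes shifted by at most -0.19 (CF1 iPSCs against day 12, median of ratios). The rise of Ccnd1 in -WS stayed called throughout, lowest at 1.01.

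A fit with the replicate number as a block changed no member's call, and moved 543 called genes to 540 on 4-factor day 2 and 169 to 168 in -PD. Deviations of same-numbered libraries correlated between -0.21 and 0.25, so the numbers were not taken as pairs. Depth limits Cdkn2c in iPSCs, where levels were under 1 FPKM.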
